A study of Homo sapiens with 12 samples.

Results

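The 35 genes described here encode proteins that carry a cell through G2 and mitosis. They were chosen by name from the combined count table, which lists 58735 gene identifiers, and all 35 passed the filter of a mean of 5 counts over the libraries. The cells were SW872, an established human liposarcoma line, and 6 groups of 2 RNA libraries were made from them. Every group stably expressed a fusion protein that was introduced by retrovirus and selected as a pooled line, either TAZ-CAMTA1 (TC) or YAP-TFE3 (YT), and every group also carried a lentiviral hairpin. The hairpin was non-targeting (shNT, the control) or directed against YEATS2 (shYEATS2) or ZZZ3 (shZZZ3), which encode subunits of the ATAC histone acetyltransferase complex. No group lacked a fusion, so the libraries compare hairpins within a fusion and fusions under a hairpin. The study lists the hairpin sequences of its RNAi screen, and which of them were used for these libraries is not stated. The paired libraries are described by the study as biological duplicates, with no word on how their cultures were kept apart, and p-values measure the spread between these libraries.

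Entry into mitosis is driven by cyclin B bound to CDK1, which is switched on by the phosphatase CDC25C. Aurora and Polo kinases then build the spindle, kinetochore proteins attach chromosomes to it, the spindle checkpoint holds the cell until all are attached, and the anaphase-promoting complex (APC/C) with CDC20 and UBE2C ends mitosis by marking cyclin B and securin for destruction. Transcripts of these genes accumulate in G2 and M phase. In proliferating cells the MuvB complex, with MYBL2 and FOXM1, activates them, and in resting cells the related DREAM complex represses them through a short element near the start site, the CHR. In bulk RNA, fewer cells in G2 and M phase and less RNA of these genes per cell cannot be told apart.

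The promoters were read first, because the CHR and CCAAT elements are what these genes are known to share. RefSeq promoters (GRCh38.p14, from 250 bases before to 50 after the start) were matched for 30 of the 35 genes. AURKA, BIRC5, TPX2, TTK and UBE2C had no entry. The CHR letters TTTGAA or TTCGAA, on either strand, were in 23 of 30 promoters (76.7%) and in 16.6% of all 27305 promoters of the same length. Within 50 bases before to 25 after the start, 16 of 30 (53.3%) held a CHR, against 4.05% of all promoters. CCAAT was in 23 of 30 (76.7%, against 35.7%), and at least 2 copies were in 14 (46.7%, against 11.3%). The forkhead letters TGTTTA were in 4 of 30 (13.3%, against 12.4% of all promoters). These are matches of letters and not measured binding sites, and in MKI67 a CHR and a CCAAT match share bases. Other spellings of the CHR were not searched, so a promoter without these letters may still hold one. The sequences below show 5 promoters with a CHR. PLK1, CCNB2, MKI67 and HMMR held one close to the start. HMMR and CENPF had less RNA in YT shYEATS2 than in YT shNT, though neither was called. Then follow 3 promoters of strongly changed genes with CCAAT and no CHR letters in this window. Capitals mark CHR and CCAAT matches on either strand, so that ATTGG is a CCAAT read on the opposite strand.
PLK1, chr16:23678639-23678938, plus strand: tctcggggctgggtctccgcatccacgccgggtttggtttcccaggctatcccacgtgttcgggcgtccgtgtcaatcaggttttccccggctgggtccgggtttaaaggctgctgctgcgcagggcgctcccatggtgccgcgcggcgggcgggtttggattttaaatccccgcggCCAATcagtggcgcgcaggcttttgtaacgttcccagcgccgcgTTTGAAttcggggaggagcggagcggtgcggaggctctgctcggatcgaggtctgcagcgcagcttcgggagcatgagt
CCNB2, chr15:59104896-59105195, plus strand: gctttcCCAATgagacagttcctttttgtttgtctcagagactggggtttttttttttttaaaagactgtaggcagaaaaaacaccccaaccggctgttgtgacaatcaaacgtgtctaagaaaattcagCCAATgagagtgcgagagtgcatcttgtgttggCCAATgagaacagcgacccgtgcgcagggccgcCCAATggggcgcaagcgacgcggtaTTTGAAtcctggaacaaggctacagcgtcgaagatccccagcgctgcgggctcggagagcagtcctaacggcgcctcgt
MKI67, chr10:128126374-128126673, minus strand: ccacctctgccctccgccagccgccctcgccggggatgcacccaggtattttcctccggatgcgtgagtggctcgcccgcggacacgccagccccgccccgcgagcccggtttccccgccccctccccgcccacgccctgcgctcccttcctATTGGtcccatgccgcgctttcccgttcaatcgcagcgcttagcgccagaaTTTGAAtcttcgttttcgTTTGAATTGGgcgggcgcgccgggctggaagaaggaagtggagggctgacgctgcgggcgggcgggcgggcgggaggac
HMMR, chr5:163460382-163460681, plus strand: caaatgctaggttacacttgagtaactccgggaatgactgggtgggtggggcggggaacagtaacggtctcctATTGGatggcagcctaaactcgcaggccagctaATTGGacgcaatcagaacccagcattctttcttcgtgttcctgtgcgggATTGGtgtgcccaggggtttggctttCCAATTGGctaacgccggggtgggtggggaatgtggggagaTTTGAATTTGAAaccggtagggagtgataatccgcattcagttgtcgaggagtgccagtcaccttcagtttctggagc
CENPF, chr1:214602945-214603244, plus strand: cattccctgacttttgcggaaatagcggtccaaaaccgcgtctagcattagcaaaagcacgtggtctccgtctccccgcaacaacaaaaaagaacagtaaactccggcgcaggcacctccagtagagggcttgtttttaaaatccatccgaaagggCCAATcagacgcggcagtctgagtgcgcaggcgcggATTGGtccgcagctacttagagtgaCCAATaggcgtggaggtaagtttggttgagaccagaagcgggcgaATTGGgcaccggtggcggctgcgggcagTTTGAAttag
CCNB1, chr5:69166900-69167199, plus strand: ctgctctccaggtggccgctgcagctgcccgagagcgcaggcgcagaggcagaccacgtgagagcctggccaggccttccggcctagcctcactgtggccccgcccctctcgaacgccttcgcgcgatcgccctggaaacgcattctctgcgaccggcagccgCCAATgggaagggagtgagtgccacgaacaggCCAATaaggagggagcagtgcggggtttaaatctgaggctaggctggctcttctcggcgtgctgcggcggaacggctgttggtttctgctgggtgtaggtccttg
KIF20A, chr5:138178862-138179161, plus strand: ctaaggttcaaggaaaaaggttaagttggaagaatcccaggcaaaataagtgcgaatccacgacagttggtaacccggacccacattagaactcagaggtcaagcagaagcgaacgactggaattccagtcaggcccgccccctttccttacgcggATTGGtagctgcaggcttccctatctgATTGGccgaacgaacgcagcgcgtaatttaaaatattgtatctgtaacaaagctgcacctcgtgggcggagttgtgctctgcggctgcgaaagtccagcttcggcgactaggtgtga
AURKB, chr17:8210176-8210475, minus strand: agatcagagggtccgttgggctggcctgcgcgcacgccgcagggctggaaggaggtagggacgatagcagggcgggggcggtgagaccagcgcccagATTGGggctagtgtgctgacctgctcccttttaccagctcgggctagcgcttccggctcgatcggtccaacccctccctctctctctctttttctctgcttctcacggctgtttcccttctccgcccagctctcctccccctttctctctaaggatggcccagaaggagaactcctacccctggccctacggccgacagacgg
PLK1 encodes the Polo kinase, CCNB2 a B-type cyclin and MKI67 the Ki-67 protein that coats mitotic chromosomes. In all 3 the CHR nearest to the start lay 29 bases before it. HMMR, which encodes a spindle protein, held 2 adjoining CHR matches and 5 CCAAT matches. CENPF, which encodes a large kinetochore protein, held its CHR 41 bases after the start. Promoters of CCNB1, KIF20A and AURKB held 2, 2 and 1 CCAAT matches. The windows of KIF20A and AURKB lay wholly inside the annotated genes, which start at 138178719 (KIF20A) and 8210600 (AURKB, minus strand). The same held for PLK1 and HMMR, which have CHR letters and whose annotated genes start at 23677656 and 163460203. It also held for CENPA, KIF11, NUF2 and NUSAP1, so it was not particular to promoters without these letters. Only 1 start per gene was read, and the letters at other starts were not searched. In all, 7 of the 30 lacked both TTTGAA and TTCGAA in the window. Their median log2 fold change with shZZZ3 in YT cells was 1.97, against 1.4 in the 23 with such letters. The ranges overlapped (1.41 to 2.53 and 0.59 to 2.14).

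Total counts ranged from 17451893 to 29294805 per library, and the 35 genes had between 14 and 10283 counts each in any library. Summed over 7 mesenchymal markers, expression was 3455 to 6107 CPM (TMM-normalised here and below). Summed adipocyte markers were at 123 to 344 CPM, with 4 of 6 tested and FABP4 and ADIPOQ not passing the count filter. Summed epithelial markers were at 289 to 918 CPM, mostly the keratins KRT8 and KRT18, while CDH1 stayed at or below 0.65 CPM, and they stood at 918 and 292 CPM in the TC shYEATS2 pair. Summed leukocyte markers stayed at or below 4.44 CPM, with 2 of 5 tested. YEATS2 was at 113 and 123 CPM in TC shNT and 45.5 and 35.1 CPM in TC shYEATS2, and at 115 and 117 CPM in YT shNT and 33.9 and 38.5 CPM in YT shYEATS2. It stayed between 127 and 138 CPM in the 4 libraries with shZZZ3. ZZZ3 was at 25.6 and 60.4 CPM in TC shNT and 21.9 and 22.7 CPM in TC shZZZ3, and at 71.2 and 49.1 CPM in YT shNT and 12.6 and 29.6 CPM in YT shZZZ3. It was also at 35.8 and 47.3 CPM in TC shYEATS2 and 31.4 and 30.7 CPM in YT shYEATS2. YEATS2 fell with its hairpin in both lines and ZZZ3 fell in YT cells, while the ZZZ3 difference in TC cells did not pass the test (log2 fold change −0.94 ± 0.42 (SE), edgeR quasi-likelihood adjusted p = 0.450).

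Libraries of a pair differed in a way that followed the base composition of genes. Across the 35 genes, the log2 difference between replicates 1 and 2 was correlated with the GC content of the exons in TC shNT (Pearson r = 0.850) and in YT shZZZ3 (r = 0.855), where genes poor in GC were lower in replicate 1. These are descriptions over 35 genes that share the same libraries. The remaining pairs gave r between −0.467 and 0.595. Each comparison below was therefore also fitted with a correction for GC content. A separate difference was seen in TC shYEATS2, in which replicate 1 was above replicate 2 in 34 of 35 genes, by a median of 0.61 on the log2 scale. The YT shNT pair, the control of the YT knock-downs, shifted the same way (33 of 35, median 0.37), and YT shYEATS2 less (28 of 35, median 0.13). With the GC correction TC shYEATS2 gave 35 genes (median 0.74) and YT shNT 29 (median 0.26). By library, 28 of the 35 genes were lowest in replicate 2 of YT shNT.

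**Figure D1:**
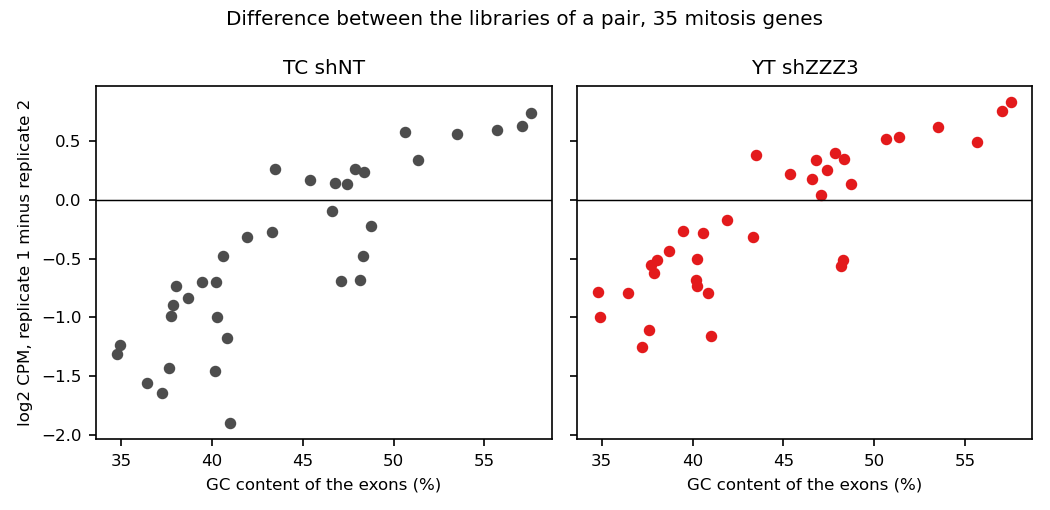
Log2 CPM of replicate 1 minus replicate 2 against the GC content of the exons, in percent, for the 35 mitosis genes (1 point each) in TC shNT and YT shZZZ3. In both pairs the points rise from left to right (r = 0.850 and 0.855), so genes poor in GC are lower in replicate 1.

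The 35 genes moved largely together over the 12 libraries. Summed over all of them, expression was 2157 and 2496 CPM in TC shNT, 2816 and 1752 CPM in TC shYEATS2, and 3303 and 3225 CPM in TC shZZZ3. In YT cells the sums were 970 and 721 CPM with shNT, 1362 and 1220 CPM with shYEATS2, and 2556 and 2612 CPM with shZZZ3. The YT shNT libraries were thus the lowest and the TC shZZZ3 libraries the highest, and the TC shYEATS2 pair spanned a wider range than TC shNT. By group mean, 27 genes were highest in TC shZZZ3, 7 in YT shZZZ3 and 1 in TC shNT, whereas 26 were lowest in YT shNT and 9 in YT shYEATS2. The median correlation between pairs of these genes over the 12 libraries, as a description of points that share libraries and scaling, was 0.866. CENPF followed the mean of the other members least (r = 0.574) and BUB1B, a checkpoint kinase, most (r = 0.989).

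**Figure D2:**
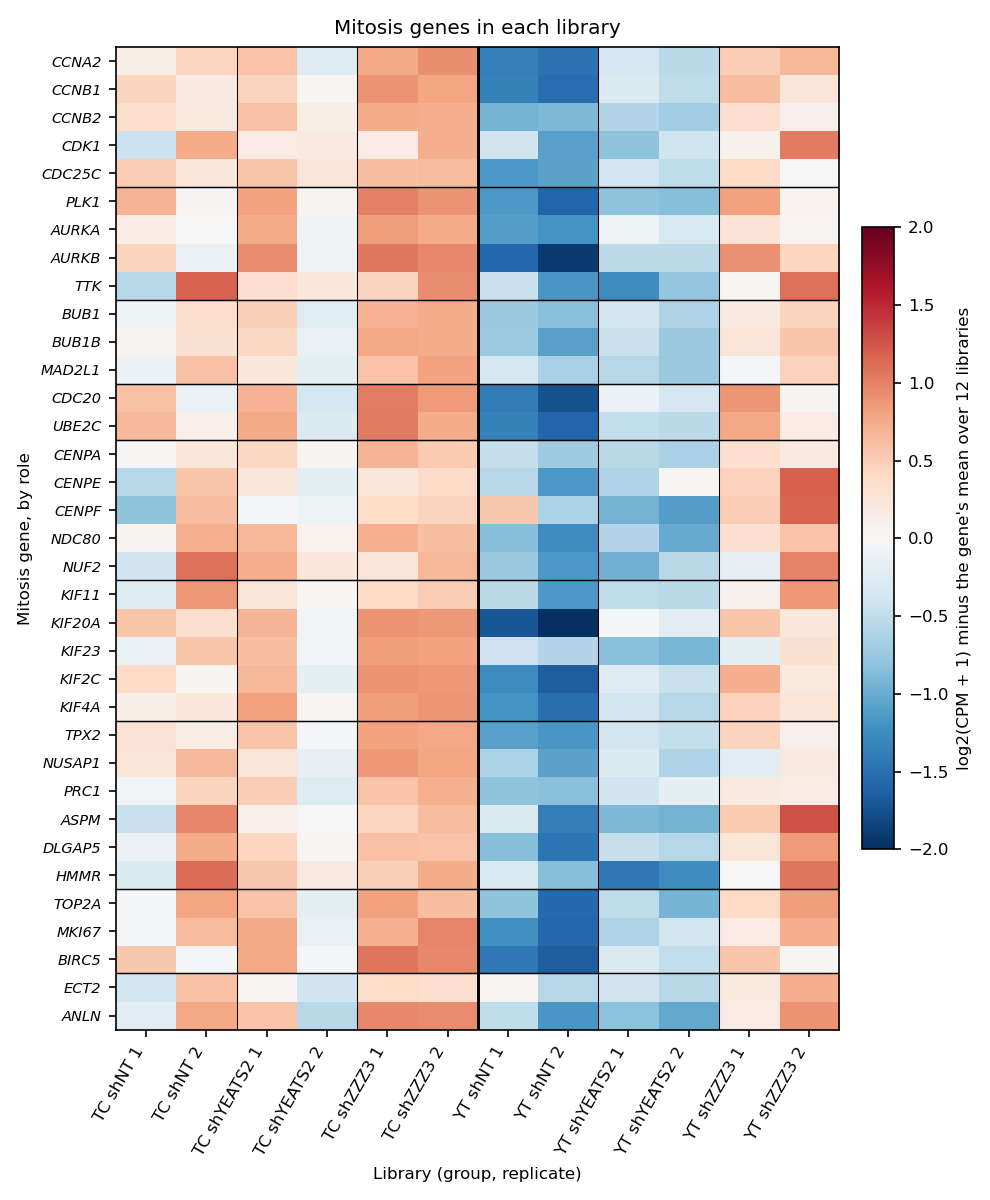
Log2(CPM + 1) of the 35 mitosis genes (rows, grouped by role) in the 12 libraries (columns), each as the difference from the gene's mean over all libraries, in log2 units from −2 (blue) to 2 (red). By group mean 26 genes are lowest in YT shNT and 9, such as HMMR, KIF23 and CENPF, in YT shYEATS2, the TC shZZZ3 columns are red throughout, and replicates of TC shNT and YT shZZZ3 differ in CENPF, HMMR, TTK and ASPM.

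The levels of the genes themselves spanned a wide range. Per kb of exon, CCNB1 was the most abundant of the 35 over all libraries (83.8 CPM per kb) and PRC1 the least (0.438 CPM per kb). PRC1 and NUSAP1, which bundle and stabilise spindle microtubules, share 57.6% and 81.4% of their exon bases with an annotated gene on the same strand, so their levels and changes are uncertain. CCNB1, the cyclin that activates CDK1, was at 248 and 206 CPM in TC shNT, 247 and 187 CPM in TC shYEATS2 and 339 and 314 CPM in TC shZZZ3. In YT cells it was at 70.7 and 62.7 CPM with shNT, 151 and 128 CPM with shYEATS2 and 279 and 214 CPM with shZZZ3. YT shNT did not overlap with any group.

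KIF20A, a kinesin needed at the midzone for cytokinesis, was at 180 and 153 CPM in TC shNT, 196 and 117 CPM in TC shYEATS2 and 228 and 224 CPM in TC shZZZ3. In YT cells it was at 36.4 and 28.8 CPM with shNT, 118 and 104 CPM with shYEATS2 and 179 and 141 CPM with shZZZ3. AURKB, the kinase of the chromosomal passenger complex, was at 47.4 and 31.3 CPM in TC shNT, 67.2 and 32.7 CPM in TC shYEATS2 and 72.4 and 67.8 CPM in TC shZZZ3. In both genes TC shZZZ3 was the highest group by mean, YT shYEATS2 the second lowest and YT shNT the lowest. In YT cells AURKB was at 10.9 and 8.40 CPM with shNT, 23.8 and 23.6 CPM with shYEATS2 and 65.7 and 46.5 CPM with shZZZ3.

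UBE2C, the enzyme that starts ubiquitin chains for the APC/C, was at 78.4 and 53.1 CPM in TC shNT, 84.3 and 40.9 CPM in TC shYEATS2 and 102 and 83.1 CPM in TC shZZZ3. In YT cells it was at 18.9 and 15.8 CPM with shNT, 34.9 and 33.8 CPM with shYEATS2 and 85 and 55.3 CPM with shZZZ3. TPX2, which activates Aurora A and nucleates spindle microtubules, was at 218 and 197 CPM in TC shNT, 263 and 173 CPM in TC shYEATS2 and 311 and 305 CPM in TC shZZZ3. For both genes the 3 YT groups did not overlap with each other. In YT cells TPX2 was at 83.3 and 78.4 CPM with shNT, 138 and 128 CPM with shYEATS2 and 242 and 191 CPM with shZZZ3.

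TOP2A, which disentangles sister chromatids, was at 233 and 415 CPM in TC shNT, 357 and 213 CPM in TC shYEATS2 and 418 and 364 CPM in TC shZZZ3. In YT cells it was at 137 and 80.7 CPM with shNT, 169 and 126 CPM with shYEATS2 and 318 and 430 CPM with shZZZ3. The shNT and shYEATS2 groups overlapped in both lines for TOP2A, and its TC shNT and YT shZZZ3 pairs were wide. ANLN, an anillin that organises the cleavage furrow, was at 71 and 142 CPM in TC shNT, 123 and 56.0 CPM in TC shYEATS2 and 163 and 161 CPM in TC shZZZ3. In YT cells ANLN was at 57.9 and 36.3 CPM with shNT, 46.8 and 40.3 CPM with shYEATS2 and 93.5 and 155 CPM with shZZZ3.

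BUB1, a checkpoint kinase, was at 34.5 and 48.0 CPM in TC shNT, 52.3 and 31.1 CPM in TC shYEATS2 and 60.5 and 63.1 CPM in TC shZZZ3. In YT cells BUB1 was at 21.9 and 20.5 CPM with shNT, 28.6 and 24 CPM with shYEATS2 and 42.2 and 51.2 CPM with shZZZ3. CENPA, the histone H3 variant that marks centromeres, differed less. Its values were 11.9 and 13.9 CPM in TC shNT, 16.0 and 12.2 CPM in TC shYEATS2, 19.4 and 17.3 CPM in TC shZZZ3, 8.13 and 6.79 CPM in YT shNT, 7.66 and 7.17 CPM in YT shYEATS2, and 14.9 and 13.5 CPM in YT shZZZ3. The YT shNT and YT shYEATS2 libraries overlapped for CENPA and not for BUB1.

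**Figure D3:**
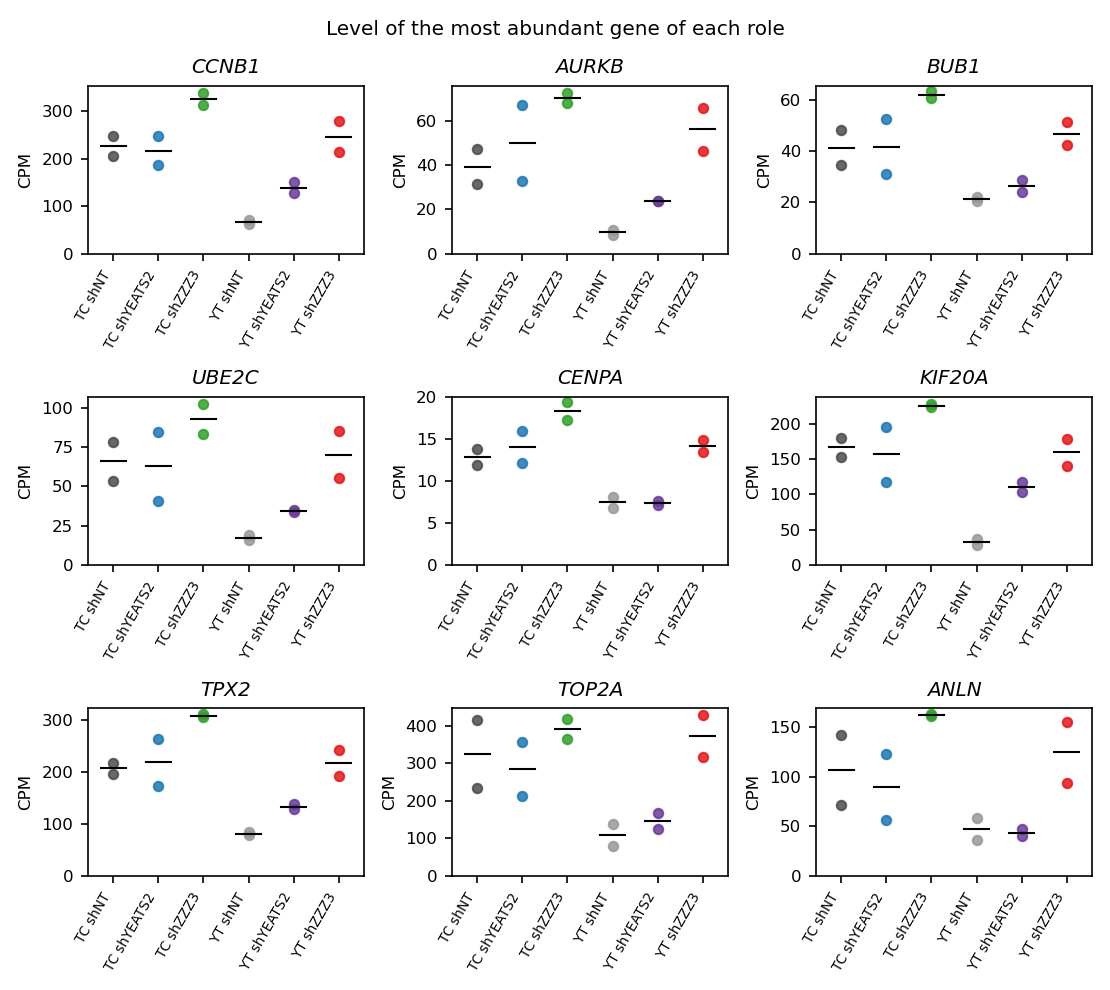
TMM-normalised CPM of the most abundant gene of each of the 9 roles, in the 2 libraries of each group (points) with their mean (line), on axes that start at 0. YT shNT is the lowest group for CCNB1, AURKB, BUB1, UBE2C, KIF20A, TPX2 and TOP2A, and TC shZZZ3 has the highest mean for all 9.

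The lines were compared under the control hairpin first, since this sets the level from which each knock-down started. Of the 35 genes, 22 were lower in YT than in TC cells and 0 were higher, with a median log2 fold change of −1.55 (range −2.35 to −0.01). Over all 18415 genes tested, 3.65% were called lower. When GC content was corrected for, 34 were called lower (7.02% of all genes), CENPF being the exception (−0.16 ± 0.27, adjusted p = 0.739), and the median was −1.58. The density of these cultures at collection is not stated. In the other RNA sequencing of the study, lines with CAMTA1 were collected before confluence and lines without it at confluence. It is not said whether the TAZ-CAMTA1 lines were counted among those with CAMTA1. If they were, and the same was done here, fusion and density cannot be told apart. Mesenchymal markers were also lower, with 4 of 7 called, and their part in the result was not tested. Some fits that left out 1 library called fewer of the 35, a loss that was not set beside that of all genes. The median ranged from −1.75 to −1.19 over all such fits.

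The largest of these differences were in KIF20A (−2.35 ± 0.26 SE, adjusted p = 0.000319), AURKB (−2.02 ± 0.34, adjusted p = 0.00389) and UBE2C (−1.92 ± 0.34, adjusted p = 0.00531). Without replicate 2 of YT shNT, AURKB gave −1.88 (adjusted p = 0.0587) and UBE2C −1.83 (adjusted p = 0.0704). By role, both APC/C genes, all 3 chromosome and passenger genes, 4 of 5 cyclin and CDK1 genes and 3 of 4 mitotic kinases were called lower. Among the others, 2 of 3 checkpoint genes, 3 of 5 kinesins, 4 of 6 spindle and midzone genes, 1 of 5 kinetochore genes and 0 of 2 cytokinesis genes were called. BUB1 passed narrowly (−0.96 ± 0.26, adjusted p = 0.0417) and lost its call in 7 of the 12 fits without 1 library (adjusted p from 0.0662 to 0.224). The smallest differences were in CENPF (−0.01 ± 0.44, adjusted p = 0.993) and ECT2, which activates RhoA at the cleavage site (−0.43 ± 0.33, adjusted p = 0.472). CENPF was at 29.5 and 80.7 CPM in TC shNT and 76.1 and 33.1 CPM in YT shNT, a spread within each pair that exceeded the difference between lines, and ECT2 was at 21.3 and 42.4 CPM against 28.7 and 18.5 CPM.

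In YT cells shZZZ3 raised most of the genes. Of the 35, 25 were higher in YT shZZZ3 than in YT shNT and 0 were lower, with a median log2 fold change of 1.57 (range 0.59 to 2.53), beside 4.4% of all genes called higher. All 35 values were positive, and in 34 both shZZZ3 libraries lay above both shNT libraries, as in 25.6% of all genes. After correction for GC content all 35 were called higher (9.13% of all genes), with a median of 1.63. Fewer were called in some fits that left out 1 library, which was not set beside the loss over all genes. In all such fits the median lay between 1.4 and 1.87. Both this contrast and the line contrast use the YT shNT libraries, so that they are not independent.

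AURKB changed most (2.53 ± 0.35, a 5.77-fold difference, adjusted p = 0.00138), followed by KIF20A (2.29 ± 0.26, adjusted p = 0.000555) and CDC20, the APC/C activator that the checkpoint inhibits (2.14 ± 0.38, adjusted p = 0.00543). CDC20 gave 1.99 (adjusted p = 0.072) without replicate 2 of YT shNT. Higher calls were made for 4 of 5 cyclin and CDK1 genes, 3 of 4 kinases, 2 of 3 checkpoint genes, both APC/C genes, 3 of 5 kinetochore genes, 4 of 5 kinesins, 4 of 6 spindle and midzone genes and all 3 chromosome and passenger genes. CCNB1 rose by 1.89 ± 0.21 (adjusted p = 0.00057), UBE2C by 2.01 ± 0.34 (adjusted p = 0.00417), TPX2 by 1.42 ± 0.21 (adjusted p = 0.00217) and TOP2A by 1.78 ± 0.36 (adjusted p = 0.00932). UBE2C gave 1.91 (adjusted p = 0.0589) and TOP2A 1.48 (adjusted p = 0.113) without replicate 2 of YT shNT. BUB1 (1.14 ± 0.26, adjusted p = 0.0188) and CENPA, the smallest called change (0.92 ± 0.22, adjusted p = 0.0237), lost their calls without either YT shNT library, and also without replicate 2 (BUB1) or replicate 1 (CENPA) of YT shZZZ3 (adjusted p from 0.0644 to 0.2). The cytokinesis genes ANLN (1.4 ± 0.41, adjusted p = 0.0554) and ECT2 (0.74 ± 0.33, adjusted p = 0.198) did not pass. The smallest values were in KIF23, a midzone kinesin (0.59 ± 0.28, adjusted p = 0.220), and ECT2. Markers of other cell types moved with this group as well. The summed level of 6 endothelial markers was 160 and 161 CPM in YT shZZZ3 and 58.4 and 61.9 CPM in YT shNT (2 of 6 called higher), and that of the mesenchymal markers was 5879 and 4524 CPM against 3455 and 3564 CPM (3 of 7 called higher). Their part in the changes of the mitosis genes was not tested.

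The effect of shYEATS2 in YT cells was smaller and less even. Here 11 of the 35 genes were higher than in YT shNT and 0 were lower, with a median log2 fold change of 0.54 (range −1.11 to 1.77), beside 9.61% of all genes called higher. The GC correction gave 19 calls (14.9% of all genes) with a median of 0.74. The mesenchymal markers summed to 5996 and 6107 CPM in YT shYEATS2 (4 of 7 called higher and 1 lower), and their part in the result was not tested. This comparison uses the same YT shNT libraries as that of shZZZ3, and their values are given side by side. Calls were lost in fits that left out a YT shNT or YT shYEATS2 library, and this was not set beside the loss over all genes. Over all fits without 1 library the median ranged from 0.32 to 0.76.

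KIF20A rose most (1.77 ± 0.25, adjusted p = 0.000677), followed by CDC20 (1.37 ± 0.38, adjusted p = 0.0244) and AURKB (1.29 ± 0.34, adjusted p = 0.0196). The calls of CDC20 and AURKB were lost without any 1 of the 4 YT shNT and YT shYEATS2 libraries (adjusted p from 0.0689 to 0.151), whereas that of KIF20A was kept. CCNB1 rose by 1.06 ± 0.21 (adjusted p = 0.00446) and TPX2 by 0.72 ± 0.21 (adjusted p = 0.0332), and without replicate 2 of YT shNT they gave 0.99 (adjusted p = 0.0509) and 0.68 (adjusted p = 0.158). TPX2 also lost its call without replicate 1 of YT shNT, either YT shYEATS2 library or either TC shZZZ3 library (adjusted p from 0.0585 to 0.144). The called genes were 3 of 5 cyclin and CDK1 genes, 2 of 4 kinases, CDC20, 3 of 5 kinesins, 1 of 6 spindle and midzone genes and 1 of 3 chromosome and passenger genes, with 0 among the checkpoint, kinetochore and cytokinesis genes.

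Lower values with shYEATS2 were seen in 9 genes, none of them called. CENPF was at 26.6 and 23.9 CPM in YT shYEATS2 against 76.1 and 33.1 CPM in YT shNT (−1.11 ± 0.45, adjusted p = 0.102). HMMR was at 8.70 and 9.96 CPM against 20.01 and 13.6 CPM (−0.84 ± 0.45, adjusted p = 0.204). Both libraries of YT shYEATS2 were below both of YT shNT in these genes and in KIF23, as in 37.8% of all genes, and the 3 were chosen after their values were seen. Corrected for GC content, CENPF gave −0.71 ± 0.28 (adjusted p = 0.0723) and HMMR −0.34 ± 0.23 (adjusted p = 0.297). Over the 35 genes the change with shYEATS2 in YT cells correlated with GC content (r = 0.629, and 0.277 with the correction, as a description). Of the 16 genes with under 41% GC, 0 were called in this contrast and 6 with the correction. The part of base composition in these values was not tested further.

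**Figure D4:**
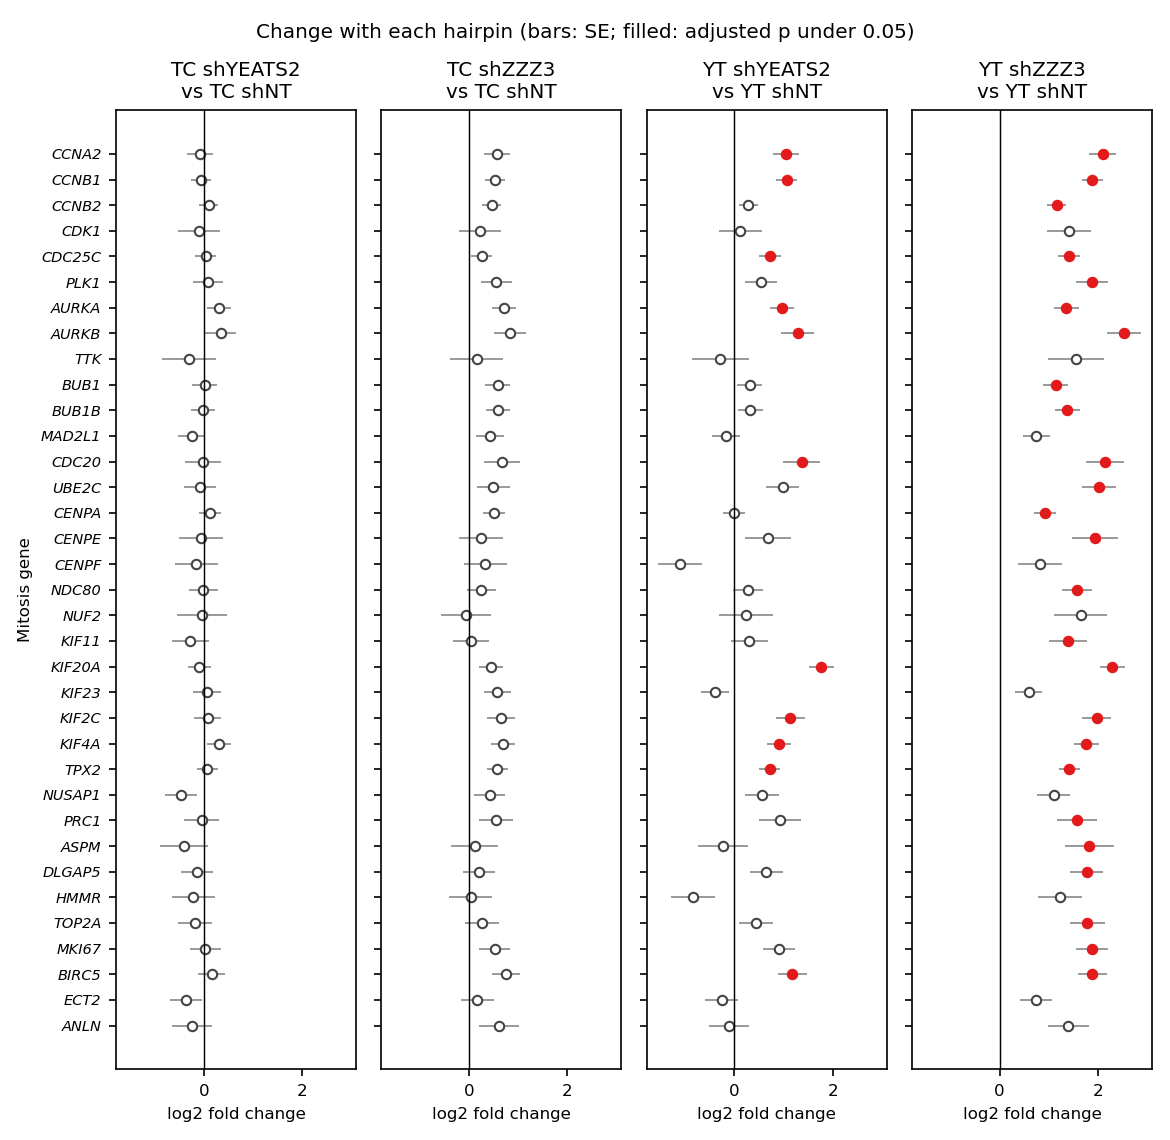
Log2 fold change with its SE for each of the 35 mitosis genes in the 4 comparisons of a hairpin with the control hairpin of the same line. Filled points (adjusted p under 0.05) are 0, 0, 11 and 25 from left to right, and all values in YT shZZZ3 lie between 0.59 and 2.53.

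The knock-downs in YT cells were also set against each other directly. With shZZZ3, 12 genes were higher than with shYEATS2 and 0 were lower (median 0.99, range 0.39 to 2.08), beside 3.79% of all genes called higher. For all 35 genes both YT shZZZ3 libraries lay above both YT shYEATS2 libraries, as for 24.5% of all genes. HMMR (2.08 ± 0.46, adjusted p = 0.0187), ASPM, a spindle pole protein (2.05 ± 0.51, adjusted p = 0.0302), and CENPF (1.93 ± 0.46, adjusted p = 0.0261) differed most, and these are among the genes poor in GC. HMMR was at 25.2 and 54.2 CPM and CENPF at 73.9 and 119 CPM in YT shZZZ3. The GC correction gave 28 calls (7.68% of all genes) and DESeq2 gave 28 (5.08% of all genes). Calls were lost without either YT shYEATS2 library, replicate 2 of YT shZZZ3 or either TC shZZZ3 library, and this was not set beside the loss over all genes. Over all fits without 1 library the median ranged from 0.92 to 1.17. Without replicate 2 of YT shZZZ3 the changes were 1.41 in HMMR (adjusted p = 0.113), 1.59 in ASPM (adjusted p = 0.137) and 1.53 in CENPF (adjusted p = 0.118), and without a YT shYEATS2 library the 3 genes had adjusted p from 0.141 to 0.213. ASPM also lost its call without either TC shZZZ3 library (adjusted p = 0.051 in both).

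In TC cells no mitosis gene passed the test with either hairpin. For shYEATS2 the count was 0 in edgeR and in DESeq2 and 0 at an unadjusted p under 0.05, beside 0.0434% of all genes called in edgeR, 0.635% in DESeq2 and 5.03% at the unadjusted p. The median log2 fold change was −0.04 (range −0.46 to 0.34). Without replicate 1 of TC shYEATS2 the median was −0.38 and without replicate 2 of TC shNT 0.23. The summed endothelial markers were at 78.5 and 275.3 CPM in the TC shYEATS2 pair, the higher value in the replicate with less mitosis gene RNA, and their part in the result was not tested. For shZZZ3 the count was 0 in edgeR and in DESeq2, beside 0.934% and 1.73% of all genes called higher, while 12 of the 35 had an unadjusted p under 0.05 (10.8% of all genes). Of the 35 values 34 were positive (median 0.50, range −0.06 to 0.83), and in 22 genes both TC shZZZ3 libraries lay above both TC shNT libraries, as in 19.9% of all genes. AURKB (0.83 ± 0.32, adjusted p = 0.348) gave the largest value. Without replicate 1 of TC shNT the median was 0.25 and without replicate 2 it was 0.71. The GC correction alone gave 0 calls, and with a replicate block added it gave 11 (3.63% of all genes).

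The difference of a hairpin's effect between the lines was tested as an interaction. For ZZZ3, the effect was larger in YT than in TC cells in KIF20A (by 1.85 ± 0.35 on the log2 scale, adjusted p = 0.0135), CCNA2, the cyclin of S and G2 phase (1.52 ± 0.37, adjusted p = 0.0403), and CCNB1 (1.36 ± 0.29, adjusted p = 0.0229). These 3 of 35 stand beside 1.46% of all genes called in that direction, with a median of 1.20 over the 35. The count was 19 with the GC correction (3.9% of all genes) and 10 with DESeq2 (2.74% of all genes). Calls were lost without either YT shNT or either TC shZZZ3 library, and this was not set beside the loss over all genes. Over all fits without 1 library the median ranged from 0.82 to 1.57. In fits without 1 library the adjusted p of KIF20A reached 0.08 (call lost in 3 of 12), that of CCNB1 0.122 (4 of 12) and that of CCNA2 0.18 (8 of 12). For YEATS2, 2 genes differed between lines, KIF20A (1.85 ± 0.35, adjusted p = 0.00661) and CCNB1 (1.13 ± 0.29, adjusted p = 0.0324), beside 3.53% of all genes, and the median of the 35 was 0.60. A count of 2 in 35 is close to that share and is not read as a result about the set. The GC correction gave 5 (7.59% of all genes). KIF20A kept this call in all 12 fits that left out a library, and CCNB1 lost it in 8 of them (adjusted p from 0.0525 to 0.124).

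The distance between the lines was smaller under the knock-downs. Under shYEATS2, 9 of the 35 genes were lower in YT than in TC cells (median −0.83, range −1.80 to −0.32), beside 6.53% of all genes called lower. HMMR (−1.80 ± 0.46, adjusted p = 0.0240), PLK1 (−1.33 ± 0.32, adjusted p = 0.0185) and NDC80, a subunit of the kinetochore's microtubule coupler (−1.25 ± 0.30, adjusted p = 0.0193), differed most among the called genes. The GC correction gave 24 (12.1% of all genes). Fewer were called without replicate 1 of TC shYEATS2 or either YT shYEATS2 library, and more without replicate 2 of TC shYEATS2. These shifts were not set beside those over all genes. Over all fits without 1 library the median ranged from −1.05 to −0.48. HMMR, PLK1 and NDC80 lost their calls without replicate 1 of TC shYEATS2 or either YT shYEATS2 library (adjusted p from 0.0741 to 0.197).

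Under shZZZ3, 0 of the 35 genes passed the test between the lines (median −0.39, range −0.98 to 0.61), beside 1.1% of all genes called lower. DESeq2 also gave 0 (1.97% of all genes), and 6 of the 35 had an unadjusted p under 0.05 (12.5% of all genes). The values were negative in 27 genes and positive in 8. With GC content corrected for, 2 genes were called (2.95% of all genes lower), MAD2L1, a checkpoint protein, and KIF23 (−0.73 ± 0.18, adjusted p = 0.0294, and −0.93 ± 0.20, adjusted p = 0.0154). The medians of the line difference under shNT, shYEATS2 and shZZZ3 were −1.55, −0.83 and −0.39, and the tests of the change between hairpins are the interactions given above.

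**Figure D5:**
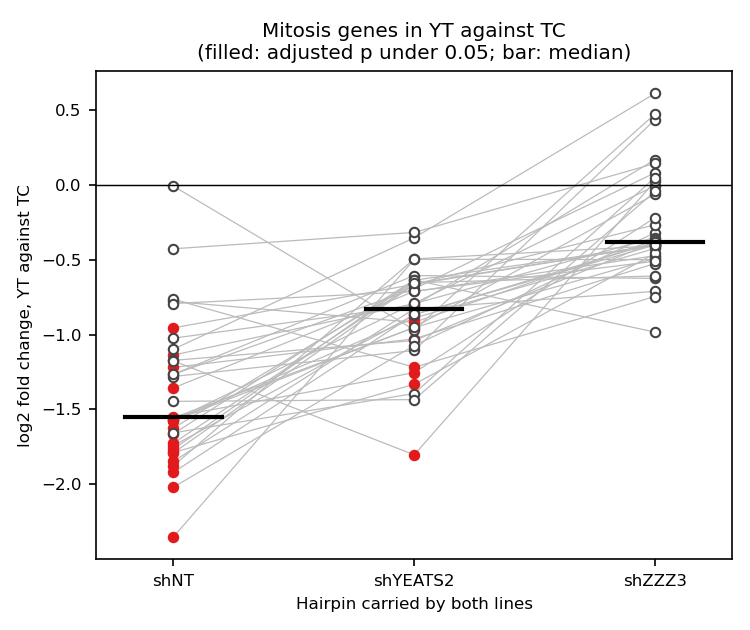
Log2 fold change of YT against TC cells for each of the 35 mitosis genes (points, joined by lines) under each hairpin, with the median as a bar at −1.55, −0.83 and −0.39. Filled points (adjusted p under 0.05) number 22, 9 and 0.

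Regulators of these genes were read in the same way. FOXM1, a forkhead activator of G2 and M genes, was at 121 and 88.1 CPM in TC shNT, 148 and 89.1 CPM in TC shYEATS2, 160 and 153 CPM in TC shZZZ3, 42.2 and 41.2 CPM in YT shNT, 78.9 and 77.2 CPM in YT shYEATS2 and 132 and 96.8 CPM in YT shZZZ3. Under shNT it was lower in YT than in TC cells (−1.32 ± 0.26, adjusted p = 0.00833) and rose in YT cells with shYEATS2 (0.90 ± 0.25, adjusted p = 0.0276) and with shZZZ3 (1.45 ± 0.26, adjusted p = 0.00508). In TC cells its values were 0.18 ± 0.25 with shYEATS2 (adjusted p = 1) and 0.58 ± 0.25 with shZZZ3 (adjusted p = 0.426). The interactions were 0.72 ± 0.36 for YEATS2 (adjusted p = 0.242) and 0.87 ± 0.36 for ZZZ3 (adjusted p = 0.228), and YT shZZZ3 against YT shYEATS2 gave 0.55 ± 0.25 (adjusted p = 0.237). Between the lines it gave −0.60 ± 0.25 under shYEATS2 (adjusted p = 0.151) and −0.45 ± 0.25 under shZZZ3 (adjusted p = 0.539).

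MYBL2, the MuvB partner in S phase and G2, was at 173 and 102 CPM in TC shNT, 213 and 90.9 CPM in TC shYEATS2, 215 and 178 CPM in TC shZZZ3, 28.8 and 35.2 CPM in YT shNT, 67.9 and 66.5 CPM in YT shYEATS2 and 196 and 124 CPM in YT shZZZ3. Under shNT it was lower in YT than in TC cells (−2.10 ± 0.39, adjusted p = 0.00643) and rose with shZZZ3 in YT cells (2.32 ± 0.39, adjusted p = 0.00396). With shYEATS2 in YT cells it gave 1.07 ± 0.38 (adjusted p = 0.0670), and in TC cells 0.15 ± 0.37 with shYEATS2 (adjusted p = 1) and 0.51 ± 0.37 with shZZZ3 (adjusted p = 0.754). The interactions were 0.92 ± 0.53 for YEATS2 (adjusted p = 0.315) and 1.81 ± 0.53 for ZZZ3 (adjusted p = 0.0882), and YT shZZZ3 against YT shYEATS2 gave 1.25 ± 0.38 (adjusted p = 0.0715). Between the lines it gave −1.18 ± 0.38 under shYEATS2 (adjusted p = 0.0646) and −0.29 ± 0.37 under shZZZ3 (adjusted p = 0.865).

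The lists around these genes were counted in the same fits, with the count after correction for GC content given second. In YT cells 5.62% of all genes were called lower with shZZZ3 and 11.1% with shYEATS2 (10.7% and 15.6% after correction), and under shNT 5.58% were called higher in YT than in TC cells (10.8% after correction). Of 63 other G2 and M genes, among them condensin and further kinetochore genes, 35 rose with shZZZ3 in YT cells (57 after correction) and 0 fell (medians 1.20 and 1.31). With shYEATS2 20 rose and 0 fell (27 and 1 after correction, medians 0.23 and 0.56), and 32 were lower in YT than in TC cells under shNT (52 after correction, medians −1.05 and −1.12). In TC cells edgeR called 0 of these 63 with either hairpin (medians 0.04 with shYEATS2 and 0.52 with shZZZ3), and 0 and 23 had an unadjusted p under 0.05. After correction 8 of the 63 were called higher with shZZZ3 in TC cells, beside 2.42% of all genes.

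Of 32 DNA replication genes, which are used in S phase, 23 rose with shZZZ3 in YT cells (29 after correction), and 21 were lower in YT than in TC cells under shNT (23 after correction). With shYEATS2 in YT cells 4 rose and 1 fell (9 and 1 after correction), and with shZZZ3 in TC cells 4 were called higher after correction and 0 before it. Their medians were 1.14 with shZZZ3 and 0.41 with shYEATS2 in YT cells and 0.57 with shZZZ3 in TC cells. The CHR letters TTTGAA or TTCGAA were in 7.14% of the 28 promoters matched for this list. They were in 68.5% of the 54 matched for the other G2 and M genes.

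Over the full list of 22 regulators of G2 and M genes, which also holds E2F, RB-family, MuvB and NF-Y subunits, 3 rose and 1 fell with shZZZ3 in YT cells (6 and 2 after correction, medians 0.15 and 0.17). Under shNT 1 was higher and 3 were lower in YT than in TC cells (1 and 5 after correction). Of the 15 core subunits of the APC/C, 0 rose and 1 fell with shZZZ3 in YT cells (3 and 1 after correction, medians 0.27 and 0.32), and 1 rose and 1 fell with shYEATS2 (5 and 0 after correction). Among 15 CDK inhibitor, D and E cyclin and CDK genes, 2 rose and 0 fell with shZZZ3 in YT cells, whereas 2 rose and 3 fell after correction (medians 0.07 and −0.06), and under shNT 4 were higher and 1 was lower in YT than in TC cells both before and after it. Over all genes tested the median change without the correction was between −0.03 and 0.04 in the 10 contrasts.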

How the data were processed

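RNA from 12 libraries (6 groups of 2, from the labels) was analysed. According to the methods of the study, the authors made stranded poly(A) libraries, sequenced paired ends, and ran bcbio-nextgen with HISAT2 on hg38 with Ensembl annotation. Salmon with tximport is also described, and it is not said which gave the deposited raw counts. The deposited values are whole-number counts per gene without normalization. The per-library files and the combined table differed in 0 cells, and 0 columns were left unmapped.

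The 18415 of 58735 genes whose counts averaged 5 or more were tested in edgeR (version 4.0.16, R version 4.3.3) with TMM scaling, robust quasi-likelihood fits over all 6 groups and a prior count of 2. Tests were two-sided, with Benjamini-Hochberg adjustment over all genes tested, and a gene was called at an adjusted p under 0.05. CPM values are TMM-normalised. SE values come from the same model refitted without a prior count. GC correction used lowess trends of each library on the GC content of exons (GENCODE release 44), fitted on genes averaging 50 or more counts, as offsets. DESeq2 (version 1.42.0), other scalings, filters and left-out libraries were alternatives. The procedure was tested on simulated data. Total counts ranged from 17451893 to 29294805, and with 2 libraries a group the spread of any 1 group is poorly known.

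The 35 genes and the other lists were chosen with earlier results of these data known. Named genes were the most abundant gene per kb of each role, the genes with the largest called changes (up to 3 each way), the smallest where most were called, FOXM1, MYBL2, YEATS2 and ZZZ3. The correction for GC content fitted with only the libraries of a contrast was added after seeing the data. Chromatin data were not used here.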

Additional observations from a re-analysis of the deposited data

Results flagged for a closer look

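The effects of the hairpins differed between the lines for 3 mitosis genes by the interaction term in edgeR (YT minus TC, on the log2 scale). For YEATS2 the difference was 1.13 in CCNB1 and 1.85 in KIF20A, beside 3.53% of all genes called in that direction, a share close to that of the mitosis genes. For ZZZ3 it was 1.52 in CCNA2, 1.36 in CCNB1 and 1.85 in KIF20A, beside 1.46% of all genes. How far these calls depended on single libraries is given with the interactions above. All 5 differences were positive, and the control pairs TC shNT and YT shNT enter both interactions. No gene was tested for a single far-lying library, because groups of 2 do not allow it.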

How the results depend on the processing

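With the GC correction 19 genes were called for shYEATS2 in YT cells, 34 for YT against TC under shNT, 24 under shYEATS2 and 2 under shZZZ3, 28 for shZZZ3 against shYEATS2 in YT cells, and 5 and 19 for the YEATS2 and ZZZ3 interactions. With the GC correction and the replicate block the counts were 20, 34, 29, 5, 31, 12 and 23 in the same order, and 11 for shZZZ3 in TC cells. With the GC correction and only the libraries of the contrast they were 26 (shYEATS2 in YT), 34 (YT against TC, shNT), 4 (YT against TC, shZZZ3), 29 (shZZZ3 against shYEATS2, median 0.85), 4 and 25 (interactions) and 12 (shZZZ3 in TC). Without GC correction, only the libraries of the contrast gave 18 (shYEATS2 in YT) and 23 (shZZZ3 against shYEATS2). DESeq2 gave 15 (YT against TC, shYEATS2), 28 (shZZZ3 against shYEATS2) and 10 (ZZZ3 interaction), and no filter on low counts gave 23, 30 and 22 for these and 7 for the YEATS2 interaction. The replicate numbers were not treated as pairing the libraries, because same-numbered deviations correlated above 0.1 in 7 of 15 group pairs and not in all (median r 0.02, from −0.46 to 0.91). The correlations among TC shNT, TC shZZZ3 and YT shZZZ3 were 0.45, 0.91 and 0.48, and in all 6 groups replicate 1 had more counts and a lower mitochondrial share than replicate 2, so that a shared technical difference between the numbers was not tested apart from the block. The replicate block gave 14 (YT against TC, shYEATS2), 19 (shZZZ3 against shYEATS2), 6 and 10 (YEATS2 and ZZZ3 interactions). The cause of these differences in count was not tested. The share of all genes called also moved with the setting. For shYEATS2 in YT cells 9.61% of all genes were called higher in the main fit and 14.9% with the GC correction. The counts in this paragraph therefore compare settings and cannot be read as a result about the mitosis genes alone. Leaving out each library in turn gave 1 to 14 calls for shYEATS2 and 10 to 32 for shZZZ3 in YT cells, 0 to 0 for both hairpins in TC cells, 8 to 31, 0 to 21 and 0 to 0 for YT against TC under shNT, shYEATS2 and shZZZ3, 0 to 28 for shZZZ3 against shYEATS2, and 1 to 11 and 0 to 9 for the YEATS2 and ZZZ3 interactions. The medians ranged from −0.38 to 0.23 and 0.25 to 0.71 (shYEATS2 and shZZZ3 in TC), 0.32 to 0.76 and 1.4 to 1.87 (in YT), −1.75 to −1.19, −1.05 to −0.48 and −0.37 to −0.23 (YT against TC), 0.92 to 1.17 (shZZZ3 against shYEATS2), and 0.29 to 0.91 and 0.82 to 1.57 (interactions). Among the named genes, signs turned in 5 results, none of them called. CENPF between the lines under shNT gave 0.049 with the block and −0.76 to 0.86 without 1 library (0.86 without TC shNT replicate 2, 0.44 without YT shNT replicate 2), and ECT2 −0.87 to 0.12 (0.12 without TC shNT replicate 2). TOP2A with shZZZ3 in TC cells gave −0.11 to 0.72 (−0.11 without TC shNT replicate 1). With shYEATS2 in YT cells ANLN gave 0.26 with the GC correction and with its fit to the libraries of the contrast, 0.27 with correction and block and −0.40 to 0.26 without 1 library (0.26 without YT shNT replicate 1), and CENPA gave 0.0087 with DESeq2 size factors, 0.0086 with DESeq2, 0.0060 with no filter and −0.12 to 0.13 without 1 library, above 0 in 6 of 12 such fits. Of 55 named results 3 lost a call with all libraries kept or with the libraries of the contrast alone, namely BUB1 between the lines under shNT (adjusted p = 0.0558 with library totals, 0.101 with the libraries of the contrast), CENPA with shZZZ3 in YT cells (0.0707 with the latter) and CCNA2 in the ZZZ3 interaction (0.0523 with library totals), and 23 lost one in a fit without 1 library. With 2 libraries a group, fits without 1 library assume that the lone library varies like the other groups.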
